A study of Drosophila melanogaster with 12 samples.

Results

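Accessible regions on unplaced and random scaffolds of the Drosophila melanogaster genome were described in 4 groups of ATAC-seq libraries. A region was a member if its sequence name began with chrUn_ or ended with _random. By this rule the members were 1353 of 3447 regions in the fat body table and 580 of 2906 regions in the gut table, which makes 1933 of 6353 in all. ATAC-seq uses the transposase Tn5 to insert sequencing adapters into open DNA, so that reads pile up where chromatin is accessible.

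All 12 libraries came from adult female flies of the genotype S106_UASfoxo, which were mated for 48 h and then kept without males. S106 is a GeneSwitch driver that the steroid RU486 activates in fat body and gut, and UASfoxo then expresses foxo, a transcription factor restrained by insulin signalling. The groups were switch_fb and switch_gut, fed RU486 (200 µM) over 21 days and then kept on control food for 7 days more, and control_fb and control_gut, labelled RU486-, with 3 libraries in each. No group received RU486 in the absence of UASfoxo, so an effect of the drug and one of the past induction cannot be told apart. The labels do not say whether replicates came from separate flies or cultures, so the p-values measure the spread between these libraries, which may be technical.

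Unplaced scaffolds are assembled pieces of sequence that could not be put on a chromosome. Random scaffolds are assigned to a chromosome but not to a place on it. In Drosophila most of both kinds come from heterochromatin, the compact chromatin around centromeres and on the Y chromosome, which is rich in satellite repeats and transposable elements and also holds the ribosomal RNA gene arrays. Reads from repeated sequence can match many places, and how such reads were treated before deposit is not given in the sources used here.

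Total counts were 811020 to 1186153 per library labelled fat body and 99191 to 709659 per library labelled gut. Most were mitochondrial, 75.8% to 88.6% and 69.2% to 87.6% of the counts, so scaffold counts are given below as a share of nuclear counts, meaning those outside the mitochondrial genome. Both gut libraries numbered 1 were shallow, with 22164 nuclear counts in switch_gut replicate 1 and 34316 in control_gut replicate 1, against 71672 to 138767 in switch_gut and 98949 to 114182 in control_gut replicates 2 and 3, and they stood apart in most scaffold measures below. The tissue labels were checked against marker genes with a region within 1000 bp. Of 10 gut markers, 8 (such as GATAe, Ptx1 and alphaTry) had such a region in the fat body table and 0 in the gut table. Of 10 fat body markers, 3 had one in the fat body table and 7 in the gut table. The markers as listed thus went against the labels, but the lists were chosen with earlier results of these data known. The placement of the arm regions of the fat body table is also uncertain. These regions lay at gene ends in 14.0%, against 13.0% after a move of 5000 bp, a check that did not cover scaffolds. Fat body and gut below are therefore names of tables and libraries as labelled, not tissues shown by the data.

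The members fell into 3 kinds. Labelled fat body, 745 regions lay on 288 unplaced scaffolds, 595 on 300 scaffolds assigned to the X chromosome and 13 on 9 assigned to the Y. The gut table had 403 regions on 186 unplaced scaffolds, 166 on 108 X scaffolds and 11 on 5 Y scaffolds. Most scaffolds held few regions, and 267 of 597 in the fat body table and 154 of 299 in the gut table held 1. Scaffold regions had a median length of 145 bp labelled fat body and 171.5 bp labelled gut, against 103 and 144 bp for regions on chromosome arms. They made up 39.3% of all regions labelled fat body.

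Many scaffold regions were listed in both tables. Of the 580 regions labelled gut, 465 (80.2%) overlapped a scaffold region labelled fat body by at least 1 bp, and 482 of the 1353 regions labelled fat body (35.6%) overlapped one labelled gut. On chromosome arms the shares were 17.4% of 2292 regions labelled gut and 20.3% of 2028 labelled fat body. On the assembled Y chromosome they were 62.5% of 24 regions labelled gut and 30.4% of 46 labelled fat body. Overlap above that of the arms was thus not particular to scaffolds. The overlap was higher for unplaced than for X scaffolds, at 85.1% against 70.5% of regions labelled gut and 47.8% against 20.3% of regions labelled fat body. At the level of whole scaffolds, 273 had a region in both tables, out of 597 labelled fat body and 299 labelled gut. These are descriptions of 2 lists, with no test. The fat body table has 1353 regions on 597 scaffolds but 2028 on 6 chromosome arms, and scaffold regions were longer in both tables. How often regions would overlap by 1 bp through spacing and length alone was not tested, so the shares on scaffolds and arms are not directly comparable.

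**Figure D1:**
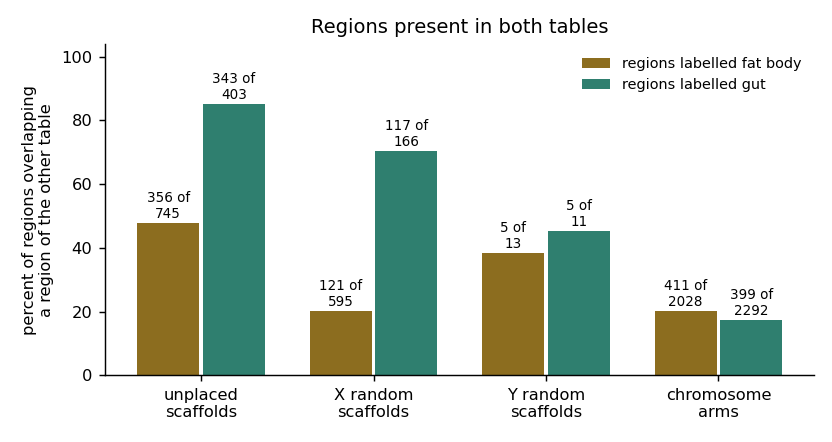
The bars give the percent of regions of each table that overlap a region of the other table by at least 1 bp, for unplaced, X random and Y random scaffolds and for chromosome arms, with the counts above each bar. The bars for regions labelled gut stand at 85.1% and 70.5% on unplaced and X random scaffolds and at 17.4% on chromosome arms.

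The shared regions carried most of the scaffold counts. Among libraries labelled fat body, 64.4% to 76.6% of scaffold counts lay in the overlapping regions, which were 35.6% of scaffold regions. Among libraries labelled gut it was 86.8% to 91.1%, in 80.2% of scaffold regions. Counts also exceeded the share of regions on chromosome arms. There 20.3% of regions labelled fat body held 39.3% to 55.9% of arm counts, and 17.4% labelled gut held 23.3% to 44.5%. In the fat body table the overlapping scaffold regions had a median of 92 counts over the 6 libraries, and the others had 22. Both sets had a median of 20 in the gut table. For overlapping and other arm regions the medians were 422 and 161 in the fat body table, and 94 and 119 in the gut table. Over 504 overlapping pairs of scaffold regions the summed counts of both tables had a Spearman rank correlation of 0.68, and over 419 pairs on chromosome arms one of 0.70. The tables have no library in common, but longer regions collect more counts in both, and this part in the correlation was not tested.

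A large part of each library labelled fat body mapped to scaffolds. The scaffold share of nuclear counts was 37.9%, 33.7% and 20.6% in switch_fb replicates 1 to 3 and 37.7%, 33.6% and 33.0% in control_fb replicates 1 to 3. Switch_fb replicate 3 lay below the other 5 libraries, which overlapped between the groups. Labelled gut, the scaffold share was 23.7%, 3.82% and 4.76% in switch_gut replicates 1 to 3 and 26.8%, 3.16% and 3.06% in control_gut replicates 1 to 3. Both shallow libraries numbered 1 thus lay several-fold above the other 4, whatever their group. The 95% Clopper-Pearson interval, which covers counting error only, was 20.5% to 20.8% in switch_fb replicate 3 and 23.2% to 24.3% in switch_gut replicate 1, narrow against these gaps.

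**Figure D2:**
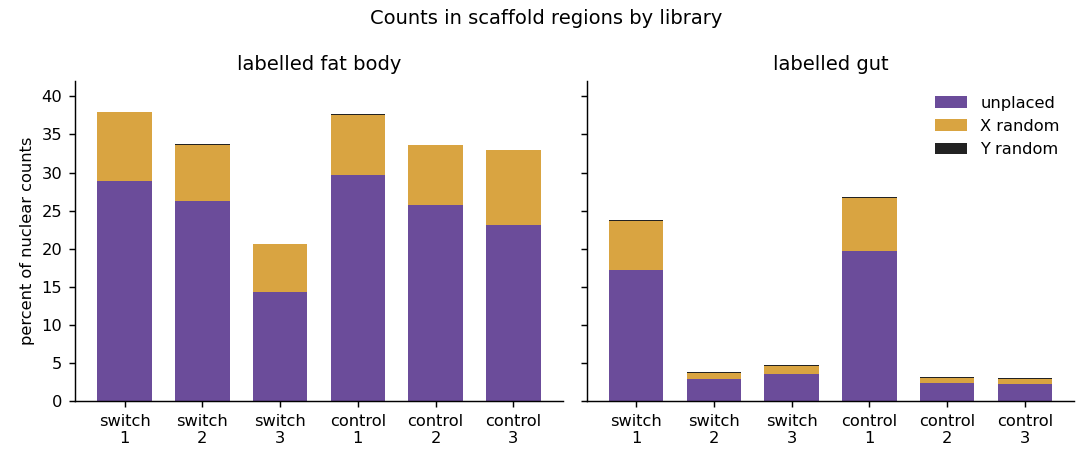
Stacked bars give the percent of nuclear counts in regions on unplaced, X random and Y random scaffolds for each library, switch libraries left of control libraries. Bars labelled fat body reach 20.6% to 37.9%, and of those labelled gut only the libraries numbered 1 pass 20%, at 23.7% and 26.8%.

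In the libraries labelled gut the shallow pair was not low in scaffold counts themselves. Switch_gut replicate 1 had 5263 scaffold counts, against 5301 and 3414 in switch_gut replicates 2 and 3. Control_gut replicate 1 had 9201, against 3130 and 3495 in control_gut replicates 2 and 3. Of the 580 regions, 155 had their highest share of nuclear counts in switch_gut replicate 1 and 304 in control_gut replicate 1. A single count is a larger share in a shallow library, and 261 of the 580 regions had fewer than 15 counts over all 6 libraries. The part of depth in these numbers was not tested, and they were not compared with arm regions. X random scaffolds moved with unplaced ones. They held 6.37%, 0.793% and 1.00% of nuclear counts in switch_gut replicates 1 to 3 and 7.03%, 0.609% and 0.743% in control_gut replicates 1 to 3. The assembled Y chromosome did likewise, at 4.95%, 0.915% and 1.56% in switch_gut and 4.04%, 0.814% and 0.702% in control_gut replicates 1 to 3.

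The scaffold counts were concentrated in few regions. Labelled fat body, 1 region held 21.5% of the 331022 scaffold counts and 10 regions held 45.9%, whereas 501 of 1353 regions had fewer than 15 counts over all 6 libraries. The top region of the gut table held 8.24% of 29804 scaffold counts, 10 regions held 29.5%, and 261 of 580 regions had fewer than 15. The same 3 places led both lists. They lie on the unplaced scaffolds DS485255v1, DS484226v1 and DS485504v1.

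The first of these, at bases 562 to 946 of DS485255v1 in the fat body table and 545 to 913 in the gut table, alone held 9.94%, 7.48% and 1.81% of nuclear counts in switch_fb replicates 1 to 3 and 9.78%, 8.48% and 5.09% in control_fb replicates 1 to 3. The groups overlapped, and switch_fb replicate 3 was lowest. The log2 fold change was -0.17 ± 0.60 (SE, edgeR adjusted p = 0.986) and 0.48 with library totals in place of TMM factors. On the gut side it held 1.75%, 0.355% and 0.547% in switch_gut replicates 1 to 3 and 2.23%, 0.221% and 0.175% in control_gut replicates 1 to 3. Here the shallow pair was highest, and the groups again overlapped. The second, at bases 1 to 167 of DS484226v1 in both tables, held 4.18%, 4.62% and 0.720% in switch_fb replicates 1 to 3 and 3.83%, 4.09% and 2.14% in control_fb replicates 1 to 3. A region at bases 139 to 359 of DS485249v1 followed the same order of libraries at its low end, with 0.140% in switch_fb replicate 3 and 0.451% in control_fb replicate 3, against 0.565% to 0.909% in the other 4 libraries labelled fat body.

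Not every abundant region dipped in switch_fb replicate 3. The region at bases 602 to 857 of DS485504v1 held 1.33%, 0.976% and 1.32% of nuclear counts in switch_fb replicates 1 to 3 and 1.70%, 1.14% and 1.40% in control_fb replicates 1 to 3. A region at bases 6040 to 6438 of CP007100v1 had 875, 788 and 855 counts in switch_fb replicates 1 to 3 and 533, 556 and 591 in control_fb replicates 1 to 3. In counts alone these groups did not overlap, but its log2 fold change after TMM scaling was 0.22 ± 0.47 (SE, edgeR adjusted p = 0.984). Among the 5 most counted regions labelled gut, bases 50 to 867 of DS484756v1 had most of their counts in the deepest library. The counts were 26, 525 and 16 in switch_gut replicates 1 to 3 and 84, 106 and 138 in control_gut replicates 1 to 3. As a share of nuclear counts the gap was smaller. The shares were 0.117%, 0.378% and 0.0223% in switch_gut and 0.245%, 0.107% and 0.121% in control_gut replicates 1 to 3.

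**Figure D3:**
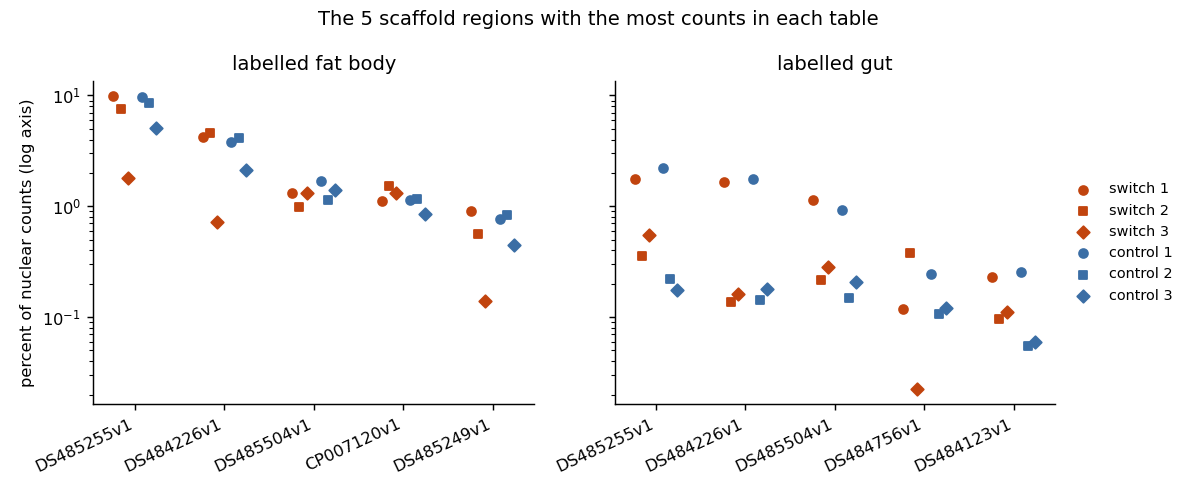
Points give the percent of nuclear counts, on a log axis, in the 5 scaffold regions with the most counts of each table, switch libraries left of control libraries and marker shapes for replicate numbers. On DS485255v1 the libraries labelled fat body span 1.81% to 9.94%, and those labelled gut 0.175% to 2.23% with both libraries numbered 1 on top.

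The scaffold with the most regions was CP007120v1, the ribosomal DNA scaffold of Release 6, with 23 regions in the fat body table and 9 in the gut table. The deposited tables do not name their genome build, and the RefSeq gene table lists the genes of that scaffold without its name. Placed on CP007120v1, these genes overlapped 21 of the 23 and 9 of the 9 regions. Placed on CP007081v1, the only other scaffold whose regions reach as far, they overlapped 0 of 2 and 0 of 1. The genes encode the precursor that is cut into the large and small ribosomal RNAs, and some of them are pseudogene copies.

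Nearly all counts of this scaffold came from 1 region. At bases 74073 to 75066, a stretch that begins inside the annotated 28SrRNA:CR45844 and runs past its end, it had 2544, 2460 and 2558 counts in switch_fb replicates 1 to 3 and 1567, 1499 and 1391 in control_fb replicates 1 to 3. The groups did not overlap in counts, whereas as a share of nuclear counts they did (1.11%, 1.54% and 1.30% in switch_fb and 1.15%, 1.16% and 0.844% in control_fb replicates 1 to 3). After TMM scaling the log2 fold change was 0.38 ± 0.41 (SE, edgeR adjusted p = 0.984). The other 22 regions had a median of 4.5 counts over 6 libraries and at most 100, in a region at bases 17049 to 17384 inside 28SrRNA-Psi:CR40596 that was read in 2 libraries. The gut table listed no region beyond base 73882 of this scaffold, and its 9 regions had 1 to 3 counts each.

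Regions on scaffolds assigned to the Y chromosome were the fewest, and all libraries are labelled female. Labelled fat body they had 116, 168 and 9 counts in switch_fb replicates 1 to 3 and 215, 39 and 115 in control_fb replicates 1 to 3. Of the 13 regions 7 were read in a single library. Labelled gut they had 28, 129 and 95 counts in switch_gut replicates 1 to 3 and 37, 84 and 96 in control_gut replicates 1 to 3. As a share of nuclear counts that was 0.0930% to 0.133% in switch_gut and 0.0841% to 0.108% in control_gut. Alone of the 3 kinds, the Y scaffolds labelled gut did not stand several-fold higher in the shallow pair. The assembled Y chromosome held more, 3.56% to 5.09% of nuclear counts in switch_fb and 4.41% to 6.86% in control_fb libraries, although these are labelled female.

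Set against chromosome arms, scaffold regions were sparser per base in the libraries labelled fat body. Counts per kb of region were 323, 201 and 150 on scaffolds in switch_fb replicates 1 to 3, against 427, 328 and 485 on chromosome arms. In control_fb replicates 1 to 3 they were 192, 162 and 202 on scaffolds, against 255, 263 and 324 on arms. The log2 ratio of scaffolds over arms averaged -0.76 ± 0.48 (SD, n = 6) and lay below 0 in 6 of 6 libraries. Its exact two-sided permutation p over libraries was 0.0312, the smallest that 6 libraries can give, and 0.125 after Benjamini-Hochberg adjustment over the 4 comparisons of this kind, which misses the threshold. In the libraries labelled gut the ratio was below 0 in 4 of 6, averaging -2.01 ± 1.69 (exact permutation p = 0.125, adjusted 0.167), and above 0 in both libraries numbered 1.

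The share of regions with at least 1 read told the shallow gut libraries apart in the same way. In switch_gut replicates 1 to 3, reads were found in 56.4%, 56.2% and 45.0% of scaffold regions, against 39.6%, 88.1% and 78.7% of arm regions. In control_gut replicates 1 to 3 they were found in 79.5%, 53.6% and 50.5% of scaffold regions, against 66.5%, 90.5% and 84.2% of arm regions. Scaffold regions were the more often read in both libraries numbered 1 and the less often read in the other 4, a mean difference of -17.7 percentage points (exact two-sided permutation p = 0.125, adjusted 0.167). In the libraries labelled fat body the shares lay closer together, with a mean difference of -2.06 points over a range from -12.3 to 6.53 (exact permutation p = 0.5, also after adjustment). It was -0.0139 points without switch_fb replicate 3 and -3.78 without control_fb replicate 3. With at least 5 reads in place of 1, the difference was -17.0 points labelled fat body (exact permutation p = 0.0312) and -33.1 points labelled gut (exact permutation p = 0.125). Adjusted over these 2 and the 4 other comparisons, their p-values were 0.0938 and 0.15. Reads in all 6 libraries were found for 30.5% of scaffold and 29.5% of arm regions labelled fat body, and for 19.3% and 22.4% labelled gut.

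**Figure D4:**
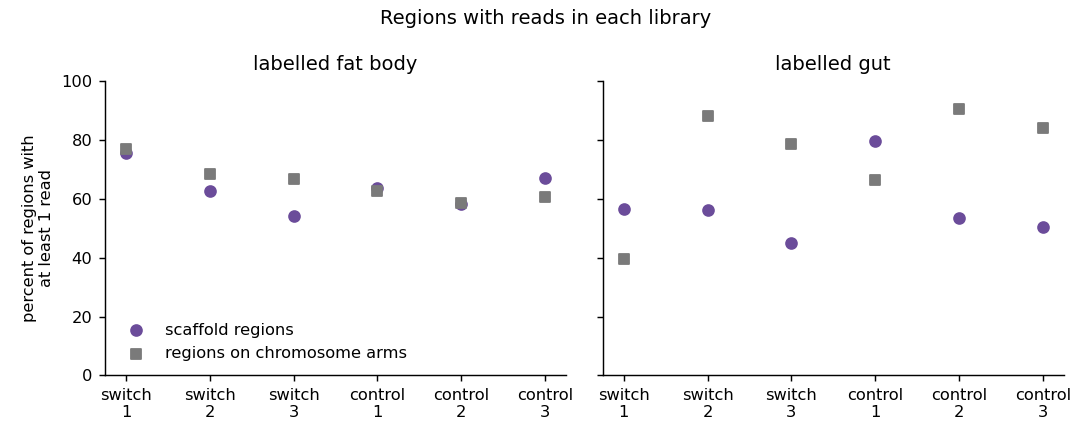
Points give, for each library, the percent of scaffold regions (circles) and of regions on chromosome arms (squares) with at least 1 read, switch libraries left of control libraries. Labelled gut, circles lie above squares in both libraries numbered 1 (56.4% against 39.6%, and 79.5% against 66.5%) and below them in the other 4.

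Libraries ranked scaffold regions alike to a moderate degree. Over the 1353 scaffold regions labelled fat body, Spearman correlations of counts were 0.50 to 0.59 both within groups and between switch_fb and control_fb libraries. On 2028 arm regions they were 0.51 to 0.62 within and 0.39 to 0.52 between groups. Over the 580 scaffold regions labelled gut they were 0.43 to 0.53 within and 0.40 to 0.60 between groups. On 2292 arm regions labelled gut, where the shallow libraries have few reads, they were 0.24 to 0.58 within and 0.15 to 0.58 between groups. Regions of 1 library share its depth, so these values are descriptions.

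The first comparison asked whether scaffold chromatin differed in the fat body libraries a week after foxo induction had ended. As a share of nuclear counts, scaffolds held 30.8% ± 9.02 in switch_fb and 34.8% ± 2.56 in control_fb libraries (SD, n = 3 each). The difference of -4.02 percentage points was smaller than the spread between switch_fb replicates, with an exact two-sided permutation p of 0.9 (3 libraries against 3 allow no p below 0.1). Without switch_fb replicate 3 it was 1.04 points, in the other direction. As a share of all counts, scaffolds held 6.49% ± 2.15 in switch_fb and 4.45% ± 0.670 in control_fb libraries (SD, n = 3 each, exact permutation p = 0.2). This denominator includes mitochondrial counts, which were 78.6% ± 4.34 of the total in switch_fb and 87.1% ± 2.41 in control_fb libraries, and their part in the change of direction was not tested.

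Region by region, no scaffold region passed the test in the libraries labelled fat body. A filter on low counts kept 426 of the 1353 scaffold regions (31.5%), against 1211 of 2028 (59.7%) on chromosome arms. edgeR's quasi-likelihood test with Benjamini-Hochberg adjustment over all 1674 tested regions called 0 scaffold regions, where it called 0% of all regions. At an unadjusted p under 0.05 it gave 5 scaffold regions higher in switch_fb (1.17%), where the share of all tested regions was 3.88%, and 1 lower (0.235%), against 0.896% of all tested regions. In 14 tested scaffold regions (3.29%) every switch_fb library lay above every control_fb library, and in 26 (6.10%) every one lay below. Over all tested regions those shares were 10.7% and 5.5%. A scaffold region thus separated the groups upward less often than the 10.7% found over all tested regions and downward about as often, which was not tested.

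Most tested scaffold regions labelled fat body had a lower fold change than the table as a whole. Of the 426 regions, 173 had a log2 fold change above 0 and 253 below, with a median of -0.19 and quartiles of -0.90 and 0.48. The median of all tested regions was 0.25 and that of arm regions 0.52. On the assembled Y chromosome it was -0.31 over 19 tested regions, and over 18 mitochondrial regions -0.76. A median below that of arm regions was thus not particular to scaffolds. The sign of the scaffold median depends on scaling, since it was 0.46 with library totals alone, where the median of all regions was 0.94. The gap between scaffold and all regions was -0.45 with TMM factors and -0.47 with library totals. Without switch_fb replicate 3 it was -0.12, and without any other 1 library it was -0.60 to -0.40. Unplaced and X scaffolds had similar medians, -0.20 over 267 and -0.18 over 157 tested regions.

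**Figure D5:**
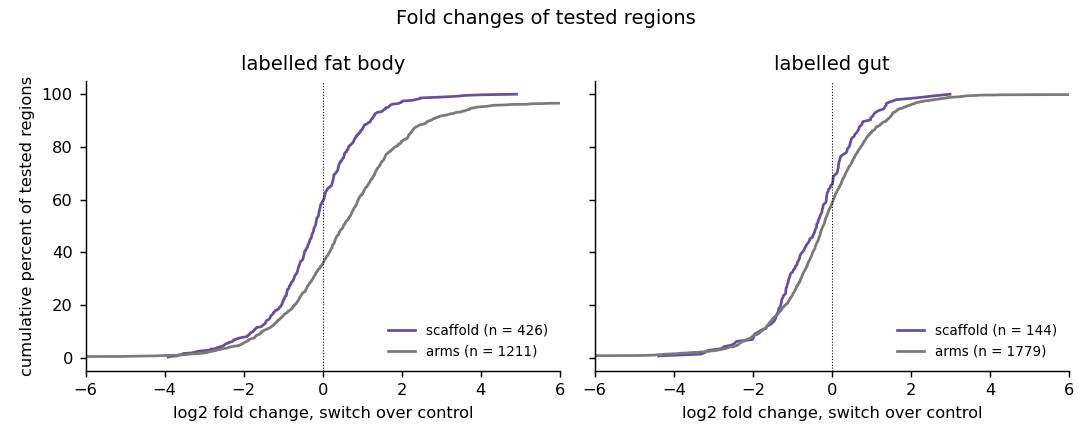
Cumulative percent of tested regions against the log2 fold change of switch over control (edgeR, TMM factors), for scaffold regions and for regions on chromosome arms in each table. Labelled fat body the scaffold curve lies left of the arm curve, with medians of -0.19 and 0.52 (0.46 and 1.20 with library totals alone), and labelled gut the medians are -0.39 and -0.23.

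The scaffold regions named for their small p-values had 76 to 711 counts over the 6 libraries. Most of them lay below the median of 240.5 for tested scaffold regions labelled fat body. Bases 372 to 507 of DS484697v1, an X scaffold, had 87, 33 and 9 counts in switch_fb and 2, 0 and 1 in control_fb replicates 1 to 3 (edgeR adjusted p = 0.608). Bases 2233 to 2382 of DS484252v1, also on X, had 44, 32 and 59 counts in switch_fb and 1, 5 and 2 in control_fb, a log2 fold change of 3.59 ± 1.45 (SE, edgeR adjusted p = 0.851; 3.25 to 4.56 with 1 library left out). In neither did the groups overlap. Bases 332 to 402 of DS483659v1, an unplaced scaffold, had 18, 39 and 14 in switch_fb and 1, 3 and 1 in control_fb. In the other direction, bases 1190 to 1416 of the unplaced DS484779v1 had 9, 2 and 2 counts in switch_fb and 30, 39 and 52 in control_fb replicates 1 to 3 (-3.57 ± 1.47, edgeR adjusted p = 0.895; -4.49 to -3.28 with 1 library left out). Bases 282 to 382 of DS484725v1 and 68 to 492 of DS485647v1, both X scaffolds, had counts of 6, 13 and 0 and of 91, 13 and 1 in switch_fb. In control_fb they had 13, 99 and 162 and 82, 151 and 373, so that the groups met at 13 counts in the first and overlapped in the second.

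DESeq2, run as the alternative test, called 8 scaffold regions labelled fat body, with 107 to 500 counts each over the 6 libraries. It called 6 of 661 scaffold regions with a defined adjusted p as higher in switch_fb (0.908%), where it called 3.11% of all such regions, and 2 as lower (0.303%), against 0.519% of all. At an unadjusted p under 0.05 it gave 66 of 1289 scaffold regions (5.12%), against 7.25% of all. The regions on DS484697v1, DS484252v1 and DS484779v1 above were 3 of the 8, with adjusted p-values of 0.0490, 0.0467 and 0.0384. The other 5 did not pass edgeR's filter and were singled out after their values were seen. Bases 875 to 988 of DS485190v1 had 238, 259 and 2 counts in switch_fb and 1, 0 and 0 in control_fb, with a DESeq2 adjusted p of 0.00225, and it was also the 1 scaffold region that edgeR called without its filter (adjusted p = 0.0321). That fit called 0.551% of all 3447 regions and 0.0739% of the 1353 scaffold regions. Bases 76 to 225 of DS485012v1 had 1, 64 and 76 counts in switch_fb and 0 in each control_fb library. Bases 1151 to 1650 of DS484610v1 had 66, 90 and 2 in switch_fb and 1, 1 and 2 in control_fb. These 3 each had at most 2 counts in 1 of the 3 switch_fb libraries. Bases 1460 to 2038 of DS484068v1 had 75, 25 and 6 counts in switch_fb and 1, 0 and 0 in control_fb (DESeq2 adjusted p = 0.0466), and the groups did not overlap. Bases 158 to 806 of DS484057v1, called lower (DESeq2 adjusted p = 0.0332), had 4, 1 and 1 in switch_fb and 2, 60 and 119 in control_fb, which overlapped. Run on the regions that edgeR tested, DESeq2 called 0 of 420 scaffold regions with a defined adjusted p, where it called 3.21% of all such regions, and 13 (3.10%) had an unadjusted p under 0.05, against 7.76% of all.

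The second comparison asked the same of the gut libraries. Scaffolds held 10.8% ± 11.2 of nuclear counts in switch_gut and 11.0% ± 13.7 in control_gut libraries (SD, n = 3 each), a difference of -0.236 percentage points (exact two-sided permutation p = 1). The spread came from the shallow pair. Without replicate 1 of both groups the means were 4.29% in switch_gut and 3.11% in control_gut libraries, a difference of 1.18 points in which both switch_gut libraries lay above both control_gut libraries (exact permutation p = 0.333, the smallest that 2 against 2 can give). The difference between the tissues in the effect of the switch, fat body minus gut, was -3.79 points (exact permutation p = 0.805, labels permuted within each tissue). Single libraries turned these directions. The gut difference was 3.24 points without switch_gut replicate 2, 2.77 without switch_gut replicate 3 and 7.66 without control_gut replicate 1. The difference between tissues was 1.28 points without switch_fb replicate 3, 2.70 without switch_gut replicate 1, and 0.137 and 0.188 without control_gut replicates 2 and 3.

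No scaffold region labelled gut passed the test either. The filter kept 144 of 580 scaffold regions (24.8%), against 1779 of 2292 (77.6%) on chromosome arms. edgeR called 0 of the 144, where it called 0% of all 1944 tested regions, and 0 had an unadjusted p under 0.05 in either direction, where 0.412% of all tested regions were higher and 1.18% lower at that p. DESeq2 also called 0 of 578 scaffold regions and 0% of all 2896, and 18 scaffold regions (3.11%) had an unadjusted p under 0.05, against 5.25% of all. On the regions that edgeR tested it called 0 of 141, with 2 (1.42%) at that unadjusted p, against 3.26% of all such regions. Every switch_gut library lay above every control_gut library in 0 of 144 regions, where the share of all tested regions was 3.65%, and below in 4 (2.78%), against 7.15%. Of the 144, 50 had a log2 fold change above 0 and 94 below. Their median of -0.39, beside -0.23 over all tested regions, moved with single libraries, to -1.40 without switch_gut replicate 1 and 1.10 without control_gut replicate 1. With the replicate number as a block it was -0.16, beside -0.40 over all tested regions, so that the order of the medians turned.

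The gut regions named by the same rule had 42 to 246 counts over the 6 libraries. Most of them lay below the median of 86 for tested scaffold regions labelled gut. Bases 681 to 814 of the unplaced DS484979v1 had 3, 21 and 0 counts in switch_gut and 65, 32 and 16 in control_gut replicates 1 to 3, a log2 fold change of -3.20 ± 1.62 (SE, edgeR adjusted p near 1; -4.39 to -1.64 with 1 library left out). Bases 1989 to 2185 of DS484369v1 had 0, 2 and 2 in switch_gut and 3, 23 and 15 in control_gut. The groups overlapped in counts in the first and not in the second. Bases 12038 to 12224 of DS483655v1, an X scaffold, had 2, 0 and 0 counts in switch_gut and 26, 0 and 24 in control_gut. In the other direction, bases 235 to 1043 of DS485808v1 had 77, 77 and 33 counts in switch_gut and 35, 11 and 13 in control_gut (1.37 ± 1.16; 0.39 to 2.92 with 1 library left out). Bases 327 to 463 of DS484277v1 had 23, 6 and 16 in switch_gut and 5, 1 and 1 in control_gut, and bases 2872 to 2981 of the X scaffold DS484067v1 had 21, 17 and 0 in switch_gut and 3, 0 and 1 in control_gut.

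Replicates of scaffold regions varied widely in both tables. The median coefficient of variation of normalised counts (CPM) among tested scaffold regions was 0.799 in switch_fb and 0.806 in control_fb libraries, and 1.03 in switch_gut and 1.16 in control_gut libraries. For arm regions it was 0.733 and 0.876 in switch_fb and control_fb, and 0.904 and 0.757 in switch_gut and control_gut libraries. The median standard error of a scaffold region's log2 fold change was 1.46 labelled fat body and 1.72 labelled gut. The 5 most counted scaffold regions had smaller ones, 0.40 to 0.69 labelled fat body and 0.84 to 0.98 labelled gut.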

How the data were processed

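Per the deposited key sheet, the authors deposited read counts per region, 1 table per tissue. The submitters' processing notes name featureCounts and DESeq2, beside MACS2, Trimmomatic and FastQC, with no versions. Not given in the sources used here are the aligner, the genome build, how reads matching several places and duplicates were treated, and whether peaks were called on pooled libraries. The counts were whole numbers, and every pair of libraries differed beyond counting noise.

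Members and lists were chosen with earlier results of these data known. The rule for named regions was, per table, the 5 most counted scaffold regions, the 3 higher and 3 lower with the smallest p, the leading scaffolds and the 5 most counted overlapping pairs. All regions of a table were fitted with the quasi-likelihood F test of edgeR 4.0.16 (R 4.3.3), switch over control, after filterByExpr at its settings of 10 (minimum count) and 15 (minimum total), with TMM factors and a threshold of 0.05 on the Benjamini-Hochberg adjusted p, with DESeq2 1.42.0 as the alternative. edgeR was tested on counts simulated at a low and at a high dispersion (spread between replicates). Recovery of known changes was required only at the low one, and the result at the high one is not given here. The common dispersions here were above the low setting, 1.40 labelled fat body and 1.38 labelled gut, so the required recovery says nothing on the counts of 0 calls. The standard error is the log2 fold change over the square root of F. CPM used TMM factors. Shares were compared by exact permutation over libraries. Comparisons of scaffolds with arms were added after the data were seen.

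Gene names come from RefSeq (Release 6). The build fit was checked on arms: a protein-coding gene began or ended within 500 bp of 44.7% of regions labelled gut, against 20.8% and 21.7% after moving them by 5000 bp either way. For regions labelled fat body it was 14.0%, against 13.0% after either move, so this check says little on the placement of that table.

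In the libraries labelled gut, switch and control libraries with the same number deviated together (correlations of 0.299, 0.218 and 0.113 of their deviations from group means, all above 0.1), which met the bound set for taking the numbers as pairs. This comes from the data and not from the labels, and switch replicate 2 with control replicate 3 correlated at 0.128, above the third pair.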

Additional observations from a re-analysis of the deposited data

How the results depend on the processing

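Depth and replicate spread limit these results, as most scaffold regions had too few counts to be tested. In the libraries labelled fat body, the count of 0 called scaffold regions was 8 with DESeq2 and 1 without a filter on low counts. It stayed 0 in edgeR with RLE factors, library totals, mitochondrial regions left out, the replicate block and each library left out, and with DESeq2 on the regions edgeR tested. The count labelled gut was 0 under every alternative run, including the replicate block. The same-numbered libraries labelled fat body correlated at 0.00134, -0.0276 and -0.0661, so their numbers are not taken as pairs. A replicate block leaves differences of means in this balanced design at -4.02 (fat body), -0.236 (gut) and -3.79 points (between tissues). Permuting within the block gave exact p-values of 1, 1 and 0.625, where 3 pairs in 1 table allow no p below 0.25, so this says nothing on the stability of the shares. In the edgeR fits no region was called with or without the block.

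The difference in scaffold share labelled fat body was 2.04 points with all counts as denominator, and -7.61 to 1.04 with 1 library left out, positive only without switch replicate 3. Labelled gut it was -6.72 to 7.66 with 1 library left out and 1.18 without replicate 1 of both groups. The difference between tissues was 2.97 points with all counts as denominator, and -11.7 to 2.70 with 1 library left out. With at least 5 reads, the gap between scaffolds and arms was -17.0 points labelled fat body and -33.1 labelled gut. With at least 1 read and 1 library left out it was -3.78 to -0.0139 labelled fat body and -24.6 to -13.9 labelled gut. The settings with at least 5 reads, without replicate 1 of both gut groups and with DESeq2 on the regions edgeR tested were chosen after seeing the data. The causes were not tested.

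Log2 fold changes changed sign at these abundant regions, and not only where they were near 0. In the main fit labelled gut they were -0.64 at DS484226v1, -0.60 at CP007100v1 and 0.58 at DS485249v1. Labelled fat body with library totals alone, DS485255v1 was 0.48, DS485504v1 0.54 and DS485249v1 0.43, and with the replicate block DS484226v1 was -0.34. Labelled gut with the replicate block, DS485255v1 was 0.32, DS485504v1 0.066 and DS484123v1 0.17, and without the filter DS484756v1 was 0.091. With 1 library left out, labelled fat body, DS485255v1 ranged from -0.69 to 0.24, DS484226v1 from -0.33 to 0.47, DS485504v1 from -0.31 to 0.065 and DS485249v1 from -0.90 to 0.18. Labelled gut, the ranges were -0.89 to 1.48 for DS485255v1, -2.14 to 1.13 for DS484226v1, -0.79 to 0.84 for DS485504v1, -1.96 to 0.55 for DS484756v1, -0.46 to 0.74 for DS484123v1, -1.65 to 2.20 for DS485249v1 and -1.84 to 0.72 for CP007100v1.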
